A study of Mus musculus with 11 samples.

Results

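RNA of the transcription factor p53 and of its target genes was followed in myeloid cells of irradiated tumours. The 32 genes were taken by name from a list of known p53 targets, chosen with earlier results of these data known. All were found among the 22068 gene symbols of the files. A mean of at least 1 RPKM (reads per kilobase of transcript, scaled to sequencing depth) over the 11 libraries was required for testing, and 29 of the 32 were among the 10557 genes that passed. Eda2r, Perp and Ddb2 did not.

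DNA double-strand breaks activate the kinases ATM and ATR, which stabilise p53 by releasing it from its ubiquitin ligase MDM2. p53 then raises transcription of genes for cell cycle arrest, apoptosis, DNA repair and its own restraint, with Mdm2 itself among the targets. Many of these genes also have other inducers, so their RNA is not a measure of p53 activity alone, and p53 itself is controlled mainly as a protein.

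The libraries came from CD11b-positive cells, which include monocytes, macrophages, neutrophils and some dendritic cells, taken from subcutaneous tumours with magnetic beads. All mice were on the C57BL/6 background, and every tumour had received 15 Gy locally 4 days before harvest. Hosts were wild type (WT, 3 libraries), TLR9-/- (TLR9KO, 4 libraries) or STAT3-/- of the MxCre/Stat3flox kind (STAT3KO, 4 libraries), in which Cre is driven by the interferon-inducible Mx promoter. No unirradiated library was analysed here, so each difference below is one between genotypes after irradiation, and none is a response to it. The labels give neither the tumour line, nor the age of the mice, nor whether WT hosts carried Cre, nor whether replicates were separate animals. What the p-values measure is therefore the scatter among the libraries at hand, and that scatter could be technical.

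Stat3 in the STAT3KO libraries was 18.2 ± 1.85 RPKM (SD, n = 4) against 73.1 ± 2.78 RPKM in WT (n = 3), so 24.9% of the WT level was left. Tlr9 was 5.77 ± 1.72 RPKM in TLR9KO (n = 4) against 30.3 ± 10.6 RPKM in WT. All 8 myeloid markers listed, Itgam (CD11b) and Ptprc included, were above 0 in every library. Depth estimated from the steps of the values ran from 30 to 53.45 M reads per library. At that depth 1 RPKM in a transcript of 2 kb stands for 60 to 107 reads. Cdkn1a rested on an estimated 22216 to 41852 reads per library and Perp on 5 to 18.

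Across the members, the mean of log2(RPKM + 1) was 3.60 ± 0.05 in WT (SD, n = 3), 3.73 ± 0.06 in TLR9KO (n = 4) and 3.80 ± 0.02 in STAT3KO (n = 4). The WT libraries, at 3.55 to 3.63, lay below every TLR9KO library, at 3.69 to 3.82, and every STAT3KO library, at 3.78 to 3.83, while the ranges of the 2 knockouts overlapped. The same mean over all 10557 tested genes also differed, at 3.59 to 3.60 in WT, 3.63 to 3.70 in TLR9KO and 3.67 to 3.71 in STAT3KO. With a correction for GC content and transcript length the members' means were 3.68, 3.71 and 3.75. No test was made of these means, since the members were chosen with results known. Levels, which RPKM gives per length of transcript, ranged widely. The highest was Cdkn1a, which encodes the cyclin-dependent kinase inhibitor p21, at 319 to 534 RPKM. Bax, Plk2 and Rps27l followed, with every library between 66.5 and 166 RPKM. Tnfrsf10b, Rrm2b, Polk and Ercc5 had no library above 4.04 RPKM. The plot of all members by library shows genes above and below their own mean within most roles.

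**Figure D1:**
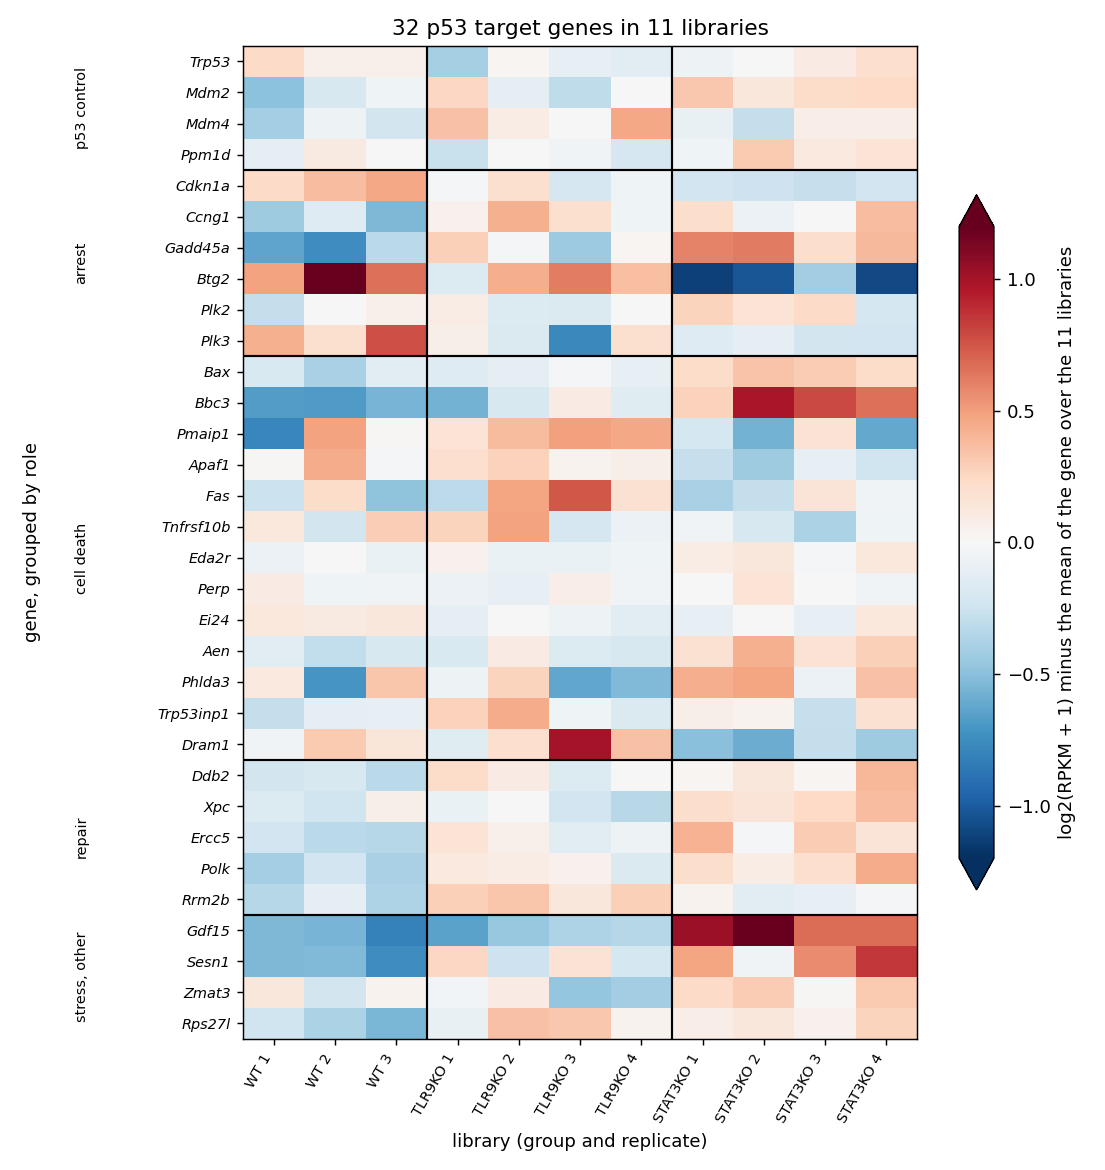
Each cell is log2(RPKM + 1) of a gene (rows, grouped by role) in a library (columns, by group and replicate) minus that gene's mean over the 11 libraries, red above and blue below it, with colours saturating at the ends of the scale. Gdf15 and Bbc3 are red in the 4 STAT3KO libraries and Btg2 is blue there, while Trp53 stays near its mean in most libraries.

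In STAT3KO against WT, 12 of the 29 tested members rose and 5 fell (limma, Benjamini-Hochberg adjusted over all tested genes, threshold 0.05). The risers were led by Gdf15, Bbc3, Sesn1 and Gadd45a, and the fallers were Btg2, Plk3, Cdkn1a, Dram1 and Apaf1. The 17 called members are 58.6% of those tested, where 44.0% of all tested genes were called. Risers made up 41.4% of the members against 29.2% of all genes, and fallers 17.2% against 14.8%. Of the 4648 genes called in all, 3083 rose and 1565 fell, a split that median-ratio scaling turned to 2338 and 2206, with 10 members up and 6 down. The median log2 difference of the members was 0.226, against 0.095 over all genes. STAT3KO and WT libraries did not overlap for 17 of the 29 tested members, 12 higher and 5 lower in STAT3KO. Over all tested genes this held for 47.7%, with 30.8% higher and 16.9% lower. In bulk libraries such as these, fewer cells of a type and less RNA per cell cannot be told apart.

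RNA of p53 itself was nearly level between STAT3KO and WT, while its negative regulator Mdm2 rose. Trp53 read 32.7, 29.03 and 28.98 RPKM in the 3 WT libraries and 26.6, 27.9, 29.9 and 31.9 RPKM in the 4 STAT3KO libraries. The ranges overlapped, and the log2 difference was -0.06 ± 0.11 (model SE, limma adjusted p = 0.697). Mdm2 read 24.0, 29.9 and 33.1 RPKM in WT against 43.2, 37.7, 40.2 and 40.7 RPKM in STAT3KO. Every STAT3KO library lay above every WT library, with a log2 difference of 0.48 ± 0.13 (limma adjusted p = 0.0147). Without WT replicate 1, the lowest library, the adjusted p was 0.0712, and the call was also lost after median-ratio scaling, where the difference was 0.37 (0.0537), and after correcting for GC content and length, where it was 0.31 (0.0943). Mdm4, the non-ligase partner of MDM2, averaged 4.65 ± 0.66 RPKM over WT libraries and 5.38 ± 0.75 RPKM over STAT3KO libraries. Ppm1d, the WIP1 phosphatase that reverses damage signalling, was 3.49 ± 0.35 and 3.97 ± 0.51 RPKM. The differences of Mdm4 and Ppm1d did not pass.

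The arrest genes were divided, with 2 of 6 tested members up and 3 down, where 29.2% of all tested genes rose and 14.8% fell. Cdkn1a was 453, 501 and 534 RPKM in WT and 330, 326, 319 and 328 RPKM in STAT3KO. The STAT3KO values were tightly grouped and all lay below WT, so that Cdkn1a fell by 0.60 ± 0.10 on the log2 scale (limma adjusted p = 0.000952), to 65.7% of the WT mean. Btg2, an antiproliferative factor, had the widest drop of any member, from 77.5, 132 and 87.7 RPKM in WT to 24.9, 26.6, 41.1 and 25.6 RPKM in STAT3KO. The log2 difference was -1.70 ± 0.23 (limma adjusted p = 0.000278), and the STAT3KO mean was 29.8% of the WT mean. Plk3, a stress-responsive polo-like kinase, was 26.8, 22.6 and 34.3 RPKM in WT and 17.6, 18.2, 16.8 and 16.6 RPKM in STAT3KO, a log2 difference of -0.64 ± 0.20 (limma adjusted p = 0.026). That call was lost, at adjusted p of 0.0519 to 0.11, without WT replicate 1, WT replicate 3, STAT3KO replicate 3 or STAT3KO replicate 4.

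Gadd45a and Ccng1 went the other way. Gadd45a, a growth arrest and DNA damage protein, read 8.08, 7.43 and 10.3 RPKM in WT and 20.4, 20.8, 15.3 and 17.5 RPKM in STAT3KO. Its STAT3KO mean was 2.15-fold the WT mean, with a log2 difference of 1.02 ± 0.17 (limma adjusted p = 0.000827). Ccng1, the cyclin G1 gene whose product works with a phosphatase on MDM2, was 32.3, 39.1 and 29.8 RPKM in WT and 50.7, 41.5, 43.4 and 56.6 RPKM in STAT3KO. The log2 difference was 0.50 ± 0.14 (limma adjusted p = 0.0166), and without WT replicate 1 or WT replicate 3 the adjusted p was 0.0554 and 0.0702. Plk2, another polo-like kinase, averaged 114 ± 14.5 RPKM over WT and 131 ± 18.6 RPKM over STAT3KO libraries and did not pass.

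Among the 11 tested cell death genes, Bbc3, Bax and Aen rose and Apaf1 and Dram1 fell. The 5 called are 45.5% of the 11, near the 44.0% of all tested genes. Bbc3, which encodes the BH3-only protein PUMA, was 3.48, 3.46 and 3.86 RPKM in WT and 7.67, 13.1, 11.4 and 10.3 RPKM in STAT3KO. The STAT3KO mean was 2.95-fold the WT mean, with a log2 difference of 1.32 ± 0.17 (limma adjusted p = 0.000217). Bax, the pore-forming effector on which PUMA acts, read 115, 99.9 and 120 RPKM in WT and 152, 166, 162 and 153 RPKM in STAT3KO. All STAT3KO libraries were above all WT libraries, by 0.50 ± 0.08 on the log2 scale (limma adjusted p = 0.000829). Aen, an apoptosis-enhancing nuclease, rose by 0.47 ± 0.10 (limma adjusted p = 0.00263), from 11.3, 10.0 and 10.8 RPKM in WT to 14.3, 17.1, 14.2 and 15.4 RPKM in STAT3KO.

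Apaf1, the scaffold that cytochrome c turns into a caspase-activating complex, was 12.0, 16.6 and 11.7 RPKM in WT and 9.64, 8.59, 11.0 and 9.90 RPKM in STAT3KO. Its log2 difference was -0.41 ± 0.12 (limma adjusted p = 0.0207), with adjusted p of 0.073 without WT replicate 2 and 0.0502 without STAT3KO replicate 2. Dram1, a lysosomal membrane protein that links p53 to autophagy, was 12.5, 16.3 and 14.3 RPKM in WT and 8.81, 8.20, 10.4 and 9.34 RPKM in STAT3KO. It fell by 0.59 ± 0.21 (limma adjusted p = 0.0432), a call lost on leaving out any one of the 7 libraries, at adjusted p of 0.0506 to 0.127. Noxa, encoded by Pmaip1, did not pass and spread widely among WT libraries, at 7.25, 18.8 and 13.4 RPKM. The death receptor genes Fas and Tnfrsf10b also did not pass, at 2.77 to 4.48 and 0.93 to 1.44 RPKM in STAT3KO against 2.54 to 4.75 and 1.16 to 2.1 RPKM in WT.

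Of the 4 tested DNA repair members, 3 rose and none fell in STAT3KO, where 29.2% of all tested genes rose and 14.8% fell. Polk, a translesion DNA polymerase, was 1.52, 1.86 and 1.56 RPKM in WT and 2.87, 2.57, 2.85 and 3.55 RPKM in STAT3KO, a log2 difference of 0.58 ± 0.11 (limma adjusted p = 0.0017). Ercc5, the XPG endonuclease of nucleotide excision repair, went from 2.22, 2.02 and 1.98 RPKM to 4.04, 2.72, 3.65 and 3.19 RPKM, with a log2 difference of 0.51 ± 0.12 (limma adjusted p = 0.00474). Xpc, which recognises damage in the same pathway, was 3.96, 3.69 and 4.83 RPKM in WT and 5.43, 5.16, 5.53 and 6.15 RPKM in STAT3KO. Its log2 difference of 0.35 ± 0.11 (limma adjusted p = 0.0206) no longer passed without WT replicate 1, WT replicate 2 or STAT3KO replicate 4, at adjusted p of 0.0574 to 0.071, or with median-ratio scaling, at 0.058. STAT3KO and WT did not overlap for any of these 3 genes, nor for 47.7% of all tested genes. Ddb2, another excision repair gene, was not tested because of its low level, at 0.37 to 0.50 RPKM in WT and 0.75 to 1.27 RPKM in STAT3KO, which do not overlap.

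The stress genes held the largest rise of any member in STAT3KO. Gdf15, a secreted cytokine of the TGF-beta superfamily, was 36.0, 35.5 and 29.5 RPKM in WT and 109, 134, 84.4 and 84.4 RPKM in STAT3KO. The means were 33.7 ± 3.60 and 103 ± 23.7 RPKM, a ratio of 3.06, and the log2 difference was 1.56 ± 0.16 (limma adjusted p = 4.83e-05). Sesn1, a sestrin that restrains the growth kinase complex mTORC1, was 8.60, 8.67 and 7.31 RPKM in WT and 18.3, 12.5, 19.6 and 24.1 RPKM in STAT3KO, a log2 difference of 1.06 ± 0.19 (limma adjusted p = 0.00138). Rps27l, a ribosomal protein paralog, rose by 0.53 ± 0.12 (limma adjusted p = 0.00538), from 82.6, 75.2 and 66.5 RPKM to 104, 108, 102 and 118 RPKM. After correcting for GC content and length its difference was -0.21 (limma adjusted p = 0.11). Zmat3, an RNA-binding zinc finger protein, averaged 5.19 ± 0.77 RPKM over WT and 6.24 ± 0.67 RPKM over STAT3KO libraries and did not pass.

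**Figure D2:**
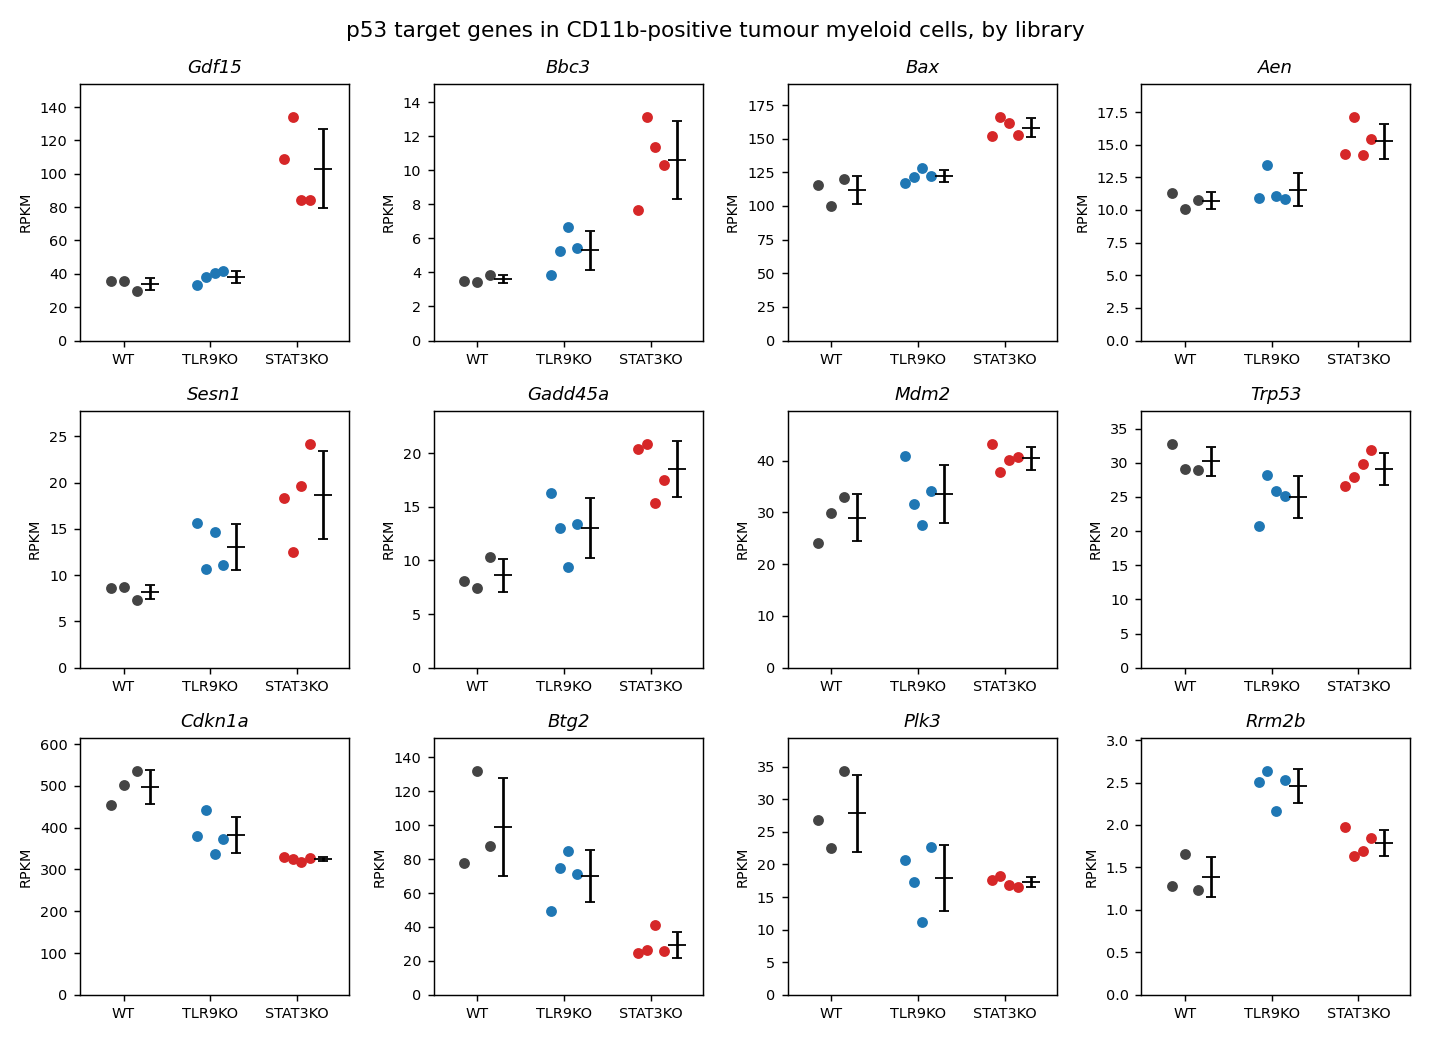
RPKM of members in each library, by group, with a point per library and the group mean and SD. Gdf15, Bbc3 and Bax are highest in STAT3KO, where Btg2 and Cdkn1a are lowest, and no WT library of these 5 genes overlaps a STAT3KO library.

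The DNA around the transcription starts was searched for the p53 decamer, the consensus motif of 10 letters that p53 binds in adjacent copies. The windows run from 250 bases before to 50 after a start, from RefSeq on GRCm38.p6, which is not the build of the files. A window was at hand for 24 of the 32 members. The decamer reads as its own reverse complement in consensus form, so both strands were covered, and exact matches with no mismatch were counted. At least 1 match lay in 12 of the 24 members (50%), against 9.55% of all 27025 genes with a window. The members were listed as known p53 targets, so a larger share could be foreseen and is no finding of these data. Among members grouped by their call in STAT3KO against WT, a match lay in 8 of the 11 risers with a window, 1 of the 5 fallers and 3 of the 7 that did not pass. These groups are small, no test was made of the counts, and they say nothing of why a member rose or fell. A match is a description of the letters and not a site shown to bind.

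The windows of 6 called members are given 5′ to 3′, with decamer matches in capitals, to show risers that hold a match (Mdm2, Ccng1, Bax, Aen), a faller that holds some (Cdkn1a) and a faller without (Btg2).
Mdm2 (chr10:117710709-117711008, minus strand): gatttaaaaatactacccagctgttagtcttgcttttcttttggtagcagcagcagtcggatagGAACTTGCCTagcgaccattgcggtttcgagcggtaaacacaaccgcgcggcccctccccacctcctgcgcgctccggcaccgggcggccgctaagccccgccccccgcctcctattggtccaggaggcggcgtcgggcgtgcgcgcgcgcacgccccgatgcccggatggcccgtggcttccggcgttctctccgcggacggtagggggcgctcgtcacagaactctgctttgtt
Cdkn1a (chr17:29090729-29091028, plus strand): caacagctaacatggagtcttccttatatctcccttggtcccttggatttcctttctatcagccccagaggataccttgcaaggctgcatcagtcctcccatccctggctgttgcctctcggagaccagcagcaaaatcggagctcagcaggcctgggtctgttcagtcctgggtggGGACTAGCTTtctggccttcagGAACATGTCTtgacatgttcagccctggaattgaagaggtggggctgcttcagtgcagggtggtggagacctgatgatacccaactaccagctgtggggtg
Ccng1 (chr11:40755237-40755536, minus strand): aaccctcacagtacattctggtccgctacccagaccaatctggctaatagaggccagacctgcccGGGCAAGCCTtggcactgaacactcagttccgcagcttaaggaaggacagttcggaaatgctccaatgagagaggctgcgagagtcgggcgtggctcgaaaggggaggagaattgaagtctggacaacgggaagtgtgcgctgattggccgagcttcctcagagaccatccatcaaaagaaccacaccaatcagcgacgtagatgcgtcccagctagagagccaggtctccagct
Btg2 (chr1:134079106-134079405, minus strand): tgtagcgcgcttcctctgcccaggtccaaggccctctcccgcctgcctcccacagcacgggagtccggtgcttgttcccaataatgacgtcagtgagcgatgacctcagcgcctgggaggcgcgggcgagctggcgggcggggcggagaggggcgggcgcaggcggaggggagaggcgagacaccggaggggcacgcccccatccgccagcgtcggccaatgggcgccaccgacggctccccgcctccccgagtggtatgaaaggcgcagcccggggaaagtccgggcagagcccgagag
Bax (chr7:45466849-45467148, minus strand): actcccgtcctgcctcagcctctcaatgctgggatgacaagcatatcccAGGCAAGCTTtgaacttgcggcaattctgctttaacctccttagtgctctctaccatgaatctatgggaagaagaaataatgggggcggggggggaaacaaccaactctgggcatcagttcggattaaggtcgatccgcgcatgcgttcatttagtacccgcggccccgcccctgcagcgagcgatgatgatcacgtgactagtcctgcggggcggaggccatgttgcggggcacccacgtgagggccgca
Aen (chr7:78895677-78895976, plus strand): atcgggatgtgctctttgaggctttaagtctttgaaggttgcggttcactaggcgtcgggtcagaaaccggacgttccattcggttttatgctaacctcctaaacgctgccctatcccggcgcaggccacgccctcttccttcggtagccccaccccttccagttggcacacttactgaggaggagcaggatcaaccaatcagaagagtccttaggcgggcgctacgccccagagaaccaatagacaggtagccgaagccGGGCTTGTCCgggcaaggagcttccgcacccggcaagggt

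In these windows the match starts 186 bases before the transcription start in Mdm2, 185 before in Ccng1, 201 before in Bax and 10 after it in Aen. Another Aen window, at a start further downstream and not printed, holds the same match 121 bases before that start. The Cdkn1a window belongs to an upstream start and holds 2 matches, 73 and 51 bases before it. This Cdkn1a window also holds a CATG followed after 6 unspecified letters by another CATG, a pattern searched on both strands that overlaps the downstream decamer here and was found in 1 of the 24 members and in 0.83% of all genes with a window. The other Cdkn1a window, at a start further downstream, has no match. The Btg2 window has no exact match, which says nothing of matches with mismatches in it or of the rest of the gene. So Cdkn1a and Mdm2, both with a match in a window, differed in direction in STAT3KO, at -0.60 and 0.48 on the log2 scale.

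In TLR9KO against WT, 7 of the 29 tested members rose, 2 fell, and the sizes were modest. The risers were Rps27l, Rrm2b, Gadd45a, Ccng1, Sesn1, Mdm4 and Polk, and the fallers Plk3 and Cdkn1a. The 9 called members are 31.0% of those tested, where 30.6% of all tested genes were called, so the members' share was near the background. Risers were 24.1% of members against 20.0% of all genes, and fallers 6.9% against 10.6%. Of all genes called, 2107 rose and 1122 fell, and after median-ratio scaling 1780 and 1504, with 5 members up and 4 down. Without WT replicate 1 only 3 members and 1985 genes were called, and without WT replicate 3 also 3 members. A GC and length correction called 3 members, a fit with no filter on low values 4, and a fit of the 2 groups alone 5. The median log2 difference of the members was 0.183, against 0.036 over all genes. Among the 29 tested members, 10 had no overlap between groups, 7 higher and 3 lower, as had 36.1% of all tested genes, 22.8% higher and 13.3% lower.

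Cdkn1a read 380, 441, 336 and 374 RPKM in the 4 TLR9KO libraries, each below the lowest WT library at 453 RPKM, a log2 difference of -0.38 ± 0.10 (limma adjusted p = 0.0178). Without WT replicate 3 the adjusted p was 0.0778. Plk3 was 20.7, 17.4, 11.1 and 22.7 RPKM in TLR9KO and overlapped WT, with a log2 difference of -0.63 ± 0.20 (limma adjusted p = 0.0374). Its call was lost, at adjusted p of 0.0505 to 0.149, without WT replicate 1, WT replicate 3, TLR9KO replicate 2 or TLR9KO replicate 3. Btg2, at 49.2, 74.9, 85.0 and 71.1 RPKM in TLR9KO against 77.5 to 132 RPKM in WT, did not pass.

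Rrm2b and Mdm4 were called up in TLR9KO and were not called in STAT3KO against WT. Rrm2b, the p53-inducible subunit of ribonucleotide reductase that supplies DNA precursors, was 1.28, 1.66 and 1.23 RPKM in WT and 2.51, 2.63, 2.17 and 2.53 RPKM in TLR9KO. The TLR9KO mean was 1.77-fold the WT mean, with a log2 difference of 0.54 ± 0.10 (limma adjusted p = 0.00228), and the groups did not overlap. With the correction for GC content and length the difference was 0.07 (limma adjusted p = 0.561) and the call was lost. Rrm2b in STAT3KO was 1.98, 1.64, 1.69 and 1.85 RPKM, partly within the WT range. Mdm4 was 3.98, 5.30 and 4.67 RPKM in WT and 7.40, 6.00, 5.61 and 8.10 RPKM in TLR9KO, above every WT library. Its log2 difference of 0.46 ± 0.14 (limma adjusted p = 0.0287) was lost, at adjusted p of 0.0557 to 0.124, without WT replicate 1, WT replicate 3, TLR9KO replicate 1 or TLR9KO replicate 4. Tested directly, Rrm2b was lower in STAT3KO than in TLR9KO, by -0.31 on the log2 scale, or -0.12 and not past the threshold with the same correction (limma adjusted p = 0.264), and the difference of Mdm4 between the knockouts did not pass.

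Rps27l read 92.1, 125, 123 and 101 RPKM in TLR9KO, all above WT, with a log2 difference of 0.55 ± 0.12 (limma adjusted p = 0.00699). With the correction for GC content and length its direction turned, to -0.11 (limma adjusted p = 0.462). Ccng1 read 45.3, 59.0, 49.9 and 42.1 RPKM, again above all WT libraries, by 0.53 ± 0.14 (limma adjusted p = 0.018), with adjusted p of 0.0662 without WT replicate 1 and 0.0781 without WT replicate 3. Sesn1 read 15.6, 10.7, 14.7 and 11.1 RPKM and Polk 2.63, 2.56, 2.47 and 1.97 RPKM, with log2 differences of 0.59 ± 0.19 and 0.36 ± 0.11 (limma adjusted p = 0.0383 and 0.0275). Gadd45a, at 16.3, 13.0, 9.41 and 13.4 RPKM, overlapped the highest WT library and rose by 0.53 ± 0.17 (limma adjusted p = 0.035). Each of these last 3 calls was lost on leaving out any of 5 of the 7 libraries. For Sesn1 those were WT replicates 1, 2 and 3 and TLR9KO replicates 1 and 3 (adjusted p of 0.0554 to 0.125), for Polk WT replicates 1 and 3 and TLR9KO replicates 1, 2 and 3 (0.054 to 0.102), and for Gadd45a WT replicates 1 and 2 and TLR9KO replicates 1, 2 and 4 (0.0686 to 0.112).

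None of the 11 tested cell death members was called in TLR9KO against WT by limma, where 30.6% of all tested genes were. Of the 11, 2 had an unadjusted p below 0.05, Bbc3 and Ei24. Bax was 117, 122, 129 and 122 RPKM in TLR9KO, overlapping WT, with a log2 difference of 0.13 ± 0.08 (limma adjusted p = 0.249). Bbc3 was 3.84, 5.26, 6.66 and 5.45 RPKM in TLR9KO. Ei24, a membrane protein of the endoplasmic reticulum, lay at 27.8 to 30.4 RPKM in TLR9KO, below WT at 33.1 to 33.7 RPKM. Trp53 was 20.8, 28.2, 25.9 and 25.2 RPKM in TLR9KO, below every WT library, but its log2 difference of -0.27 ± 0.11 did not pass (limma adjusted p = 0.0745). With median-ratio scaling it passed, at -0.33 (limma adjusted p = 0.0263). Mdm2 was 41.0, 31.6, 27.6 and 34.1 RPKM, a log2 difference of 0.20 ± 0.13 (limma adjusted p = 0.277).

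The STAT3KO and TLR9KO comparisons use the same 3 WT libraries, so their differences are not independent. Side by side, the log2 differences from WT of Gdf15 were 1.56 in STAT3KO, where it was called, while in TLR9KO, where it was not called, the libraries read 33.4, 38.1, 40.5 and 41.4 RPKM. Those of Rps27l were 0.53 and 0.55, those of Ccng1 0.50 and 0.53, and those of Plk3 -0.64 and -0.63. The difference between the knockouts takes no WT value, but its SE and p rest on a spread pooled over all 11 libraries. In a fit of the 2 knockouts alone, Gadd45a lost its call.

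**Figure D3:**
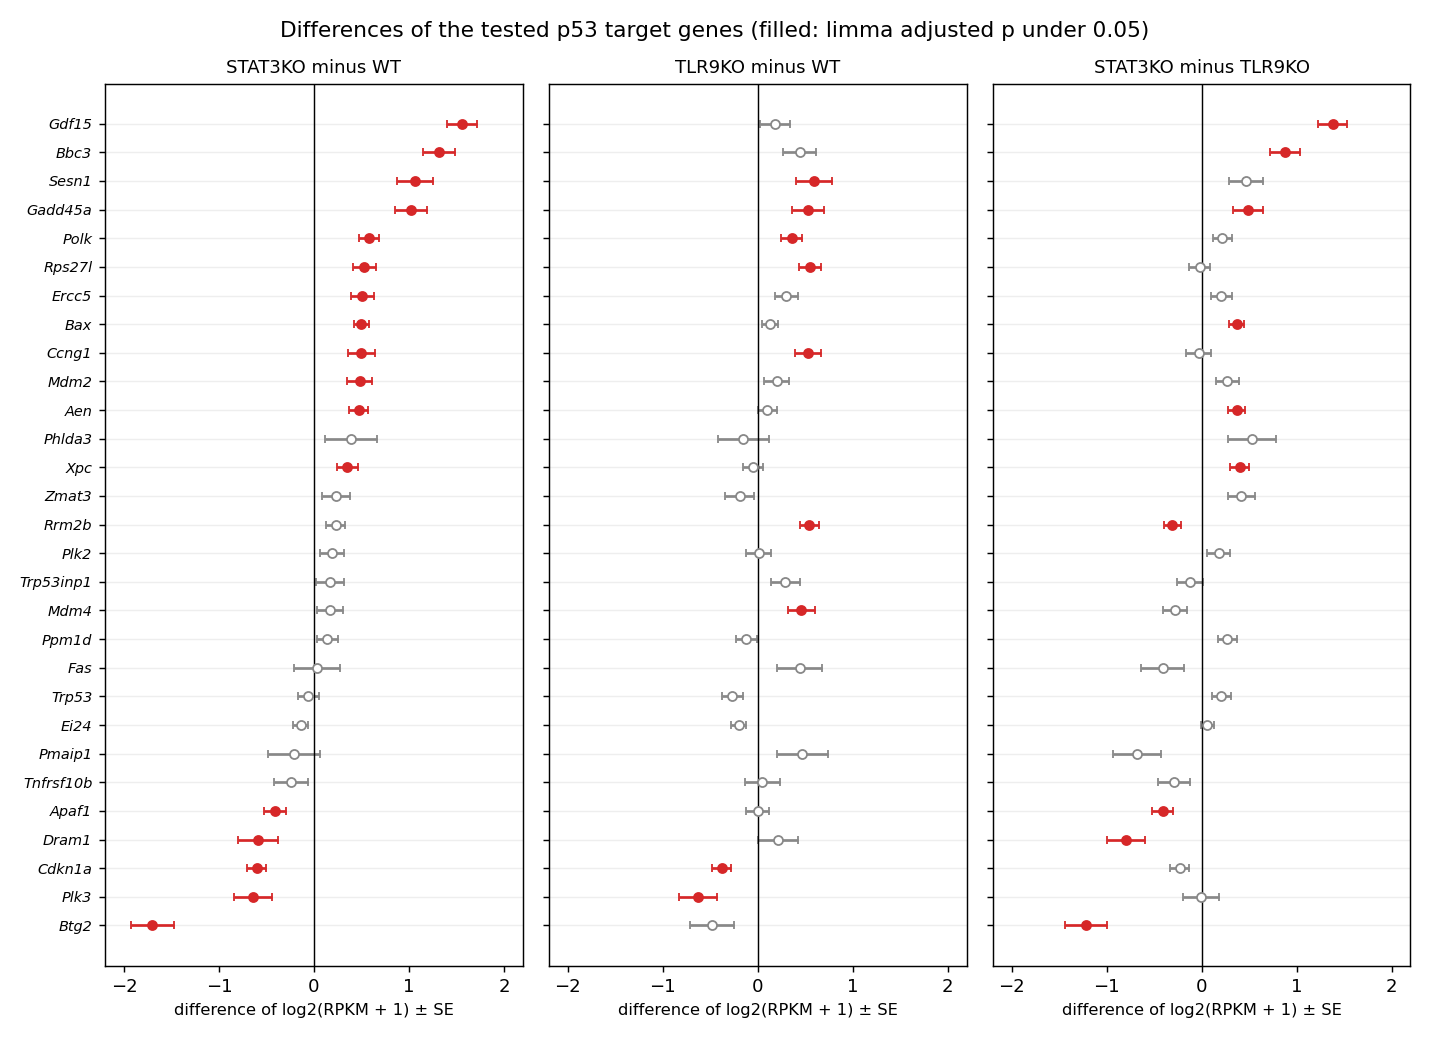
Log2 difference of each tested member in the 3 comparisons, with bars for the moderated SE and filled points for members past the limma threshold. Gdf15, Bbc3 and Btg2 stand far from 0 in both comparisons that involve STAT3KO, while Rps27l, Ccng1 and Polk lie above 0 in both comparisons with WT.

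In STAT3KO against TLR9KO, 6 of the 29 tested members were higher and 4 lower in STAT3KO. Gdf15, Bbc3, Gadd45a, Xpc, Aen and Bax were the higher ones, and Btg2, Dram1, Apaf1 and Rrm2b the lower ones. The 10 called members are 34.5% of those tested, where 22.8% of all tested genes were called, 13.4% higher and 9.46% lower. Of all genes called, 1410 were higher and 999 lower in STAT3KO, and after median-ratio scaling 1007 and 1193, with 5 members higher and 4 lower. In all 2409 genes were called, or 1577 without TLR9KO replicate 4, and array weights raised the members called to 18. The median log2 difference of the members was 0.175, against 0.065 over all genes. Among the 29 tested members, 10 had no overlap between groups, 5 higher and 5 lower, as had 27.0% of all tested genes, 16.4% higher and 10.6% lower.

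Gdf15 differed most, by 1.38 ± 0.15 on the log2 scale (limma adjusted p = 0.000191), followed by Btg2 at -1.22 ± 0.22 (limma adjusted p = 0.00355). The death genes Bbc3, Bax and Aen were higher in STAT3KO by 0.88 ± 0.16, 0.37 ± 0.08 and 0.37 ± 0.09 (limma adjusted p = 0.00401, 0.00784 and 0.0136), and no library of one group overlapped the other for any of them. Dram1, at 11.6, 15.0, 26.7 and 16.8 RPKM in TLR9KO, was lower in every STAT3KO library, by -0.80 ± 0.20 (limma adjusted p = 0.0154). Xpc, at 4.26, 4.51, 3.74 and 3.41 RPKM in TLR9KO, was higher in STAT3KO by 0.40 ± 0.10 (limma adjusted p = 0.0154).

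Gadd45a, Apaf1 and Rrm2b differed between the knockouts by 0.49 ± 0.16, -0.41 ± 0.11 and -0.31 ± 0.09 (limma adjusted p = 0.0452, 0.0274 and 0.0282). Apaf1 in TLR9KO read 13.8, 14.6, 12.2 and 12.5 RPKM, all above STAT3KO. These 3 calls were each lost on leaving out any of 6 of the 8 libraries. For Gadd45a they were TLR9KO replicates 2, 3 and 4 and STAT3KO replicates 1, 2 and 4 (adjusted p of 0.0788 to 0.11), for Apaf1 TLR9KO replicates 1, 2 and 4 and STAT3KO replicates 1, 2 and 4 (0.0502 to 0.077), and for Rrm2b TLR9KO replicates 1, 2 and 4 and STAT3KO replicates 2, 3 and 4 (0.0533 to 0.0776). Among the 4 members that make up p53 and its controls, none was called by limma, where 22.8% of all tested genes were. Of these 4, 2 had an unadjusted p below 0.05, Mdm2 and Ppm1d. Trp53 and Mdm2 differed by 0.21 ± 0.10 and 0.27 ± 0.12 (limma adjusted p = 0.137 and 0.135), and Mdm2 passed without TLR9KO replicate 1 (0.37, adjusted p = 0.0419) and with array weights (0.32, adjusted p = 0.0322). Cdkn1a was lower in each STAT3KO library than in any TLR9KO library, yet its difference of -0.23 ± 0.10 did not pass (limma adjusted p = 0.111). It passed in 4 of 18 alternatives, among them the GC and length correction, at -0.38 (limma adjusted p = 0.018), and the fit without TLR9KO replicate 3 (-0.29, adjusted p = 0.0493).

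The members that passed in no comparison were Trp53, Ppm1d, Plk2, Pmaip1, Fas, Tnfrsf10b, Ei24, Phlda3, Trp53inp1 and Zmat3. Phlda3, an inhibitor of the kinase AKT, spread from 19.8 to 42.0 RPKM within WT, in TLR9KO from 21.2 to 40.0 and in STAT3KO from 31.5 to 46.4 RPKM. Trp53inp1, a stress protein that aids p53, was 4.83 to 5.65 RPKM in WT, while TLR9KO had 5.32 to 8.68 and STAT3KO 4.87 to 7.09 RPKM. Fas reached 7.26 RPKM in TLR9KO replicate 3, against at most 4.75 RPKM in WT. Eda2r, a receptor of the TNF receptor superfamily, and Perp, a desmosomal protein, stayed at or below 0.28 RPKM in every library. An estimated 8 to 46 reads lay behind Eda2r and 32 to 133 behind Ddb2. Fitted without the filter on low values, Ddb2 passed in STAT3KO against WT, at 0.40 ± 0.11 (limma adjusted p = 0.0224), while Eda2r and Perp had adjusted p of 0.0541 and 0.735.

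The differences of all genes ran with base composition and with transcript length. Across all tested genes, where genes are not independent replicates, the Spearman correlation of the log2 difference with the GC content of the longest transcript was -0.552 in TLR9KO against WT, -0.244 in STAT3KO against WT and 0.299 between the knockouts. With the length of that transcript it was -0.157, -0.296 and -0.256. In TLR9KO against WT the median difference was 0.385 among the 2085 genes poorest in GC and -0.191 among the 2086 richest in GC. The 7 members that rose in TLR9KO had GC contents of 39.4% to 49.8%, and the 2 that fell had 54.4% and 58.8%. With a correction for GC content and length together, 3 members were called in TLR9KO against WT, namely Sesn1 at 0.64 (limma adjusted p = 0.0438), Bbc3 at 0.63 (0.0347) and Ei24 at -0.26 (0.0207). The other 8 of the 9 called members lost their call, at adjusted p of 0.0623 (Cdkn1a) to 0.971 (Polk). Rps27l, with a transcript of 575 bases, then read -0.11 in TLR9KO and -0.21 in STAT3KO, so its direction turned in both.

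In STAT3KO against WT the members did not separate by GC content, with a median of 49.8% in the 12 risers and 49.7% in the 5 fallers. Gdf15 and Bbc3, the largest rises, had 61.3% and 65.2%, and Sesn1 and Gadd45a, which came next, both had 49.8%. With the same correction 15 members were called in that comparison. Mdm2, Ccng1 and Rps27l lost their calls, and Ei24 passed at -0.31 (limma adjusted p = 0.00358). Between the knockouts 10 members were called with the correction, with Gadd45a, Bax and Rrm2b among those lost. The correction takes GC content and length at once, and the part of each alone was not tested.

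**Figure D4:**
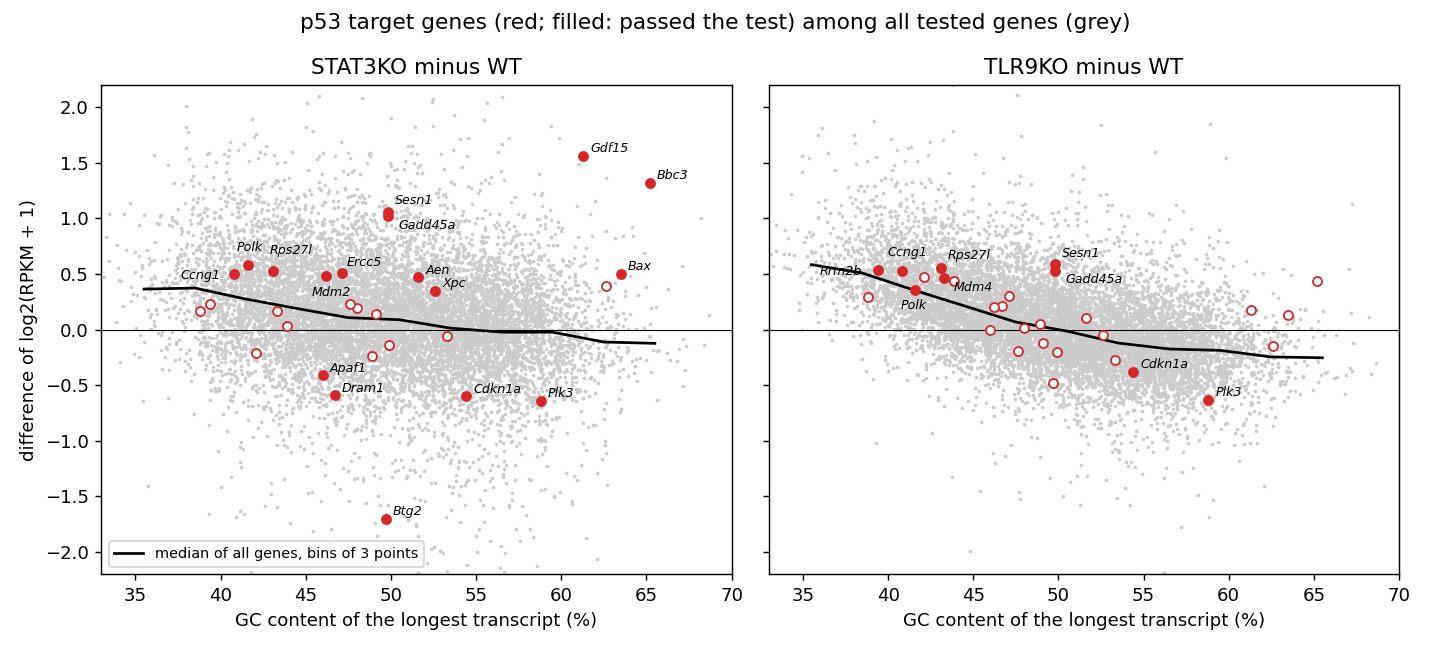
Log2 difference from WT (vertical axis) against GC content of the longest transcript in percent (horizontal axis) for all tested genes within the axis limits (grey) and the members (red, filled where past the threshold), with the median of all genes in bins of 3 points as a line. In TLR9KO the 7 risers lie at or below the median GC content of 49.8% and both fallers above it, and in STAT3KO Gdf15, Bbc3 and Bax lie above the line at its GC-rich end.

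Other genes of the pathway were read from lists of the same kind. Their differences are given without the GC and length correction, and whether they hold with it was not tested. Of the 14 tested genes for damage sensing and p53 activation, 3 rose and 2 fell in STAT3KO against WT, so that 35.7% were called against 44.0% of all tested genes. Rad50 and Nbn, partners in the complex that binds broken DNA ends, rose by 0.98 and 0.95. Hipk2, a kinase that phosphorylates p53, fell by 0.54, and Usp7 by 0.25. In TLR9KO against WT, Nbn and Rad50 rose by 0.80 and 0.62 and Mdc1, a mediator at damaged chromatin, fell by 0.41, with 21.4% called against 30.6%. Between the knockouts none was called by limma, against 22.8% of all tested genes, and 2 had an unadjusted p below 0.05. Of 18 further p53 targets tested, 5 rose and 2 fell in STAT3KO against WT, 2 rose and 3 fell in TLR9KO against WT, and 4 were higher and 0 lower in STAT3KO than in TLR9KO. The shares called, 38.9%, 27.8% and 22.2%, were below the 44.0%, 30.6% and 22.8% of all tested genes. Among them Bid, a BH3-only protein, rose by 0.82 in STAT3KO, and Triap1, a p53-regulated inhibitor of apoptosis, rose by 0.78 in STAT3KO and 0.47 in TLR9KO. Steap3, a metalloreductase, fell by 0.64 in STAT3KO and 0.66 in TLR9KO. In TLR9KO Sesn2 fell by 0.65 and Sfn by 0.52, and Sfn fell by 0.49 in STAT3KO. Between the knockouts Bid, Sesn2 and Triap1 were higher in STAT3KO, by 0.53, 0.42 and 0.32.

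Few of the cell cycle genes that p53 represses through p21 passed. Of 22 tested, 2 rose and 0 fell in STAT3KO against WT, Cdk1 by 0.56 and Tyms by 0.51, so that 9.09% were called against 44.0% of all tested genes. In TLR9KO against WT none was called by limma, against 30.6% of all tested genes, and 4 had an unadjusted p below 0.05. Between the knockouts Mki67 and Mcm6 were higher in STAT3KO, by 0.75 and 0.44, again 9.09%, against 22.8%. There 8 of the 22 had an unadjusted p below 0.05. The log2 difference there was above 0 for 18 of the 22, with a median of 0.253 against 0.065 over all genes. For STAT3KO against WT it was above 0 for 14, with a median of 0.089 against 0.095 over all genes. For TLR9KO against WT it was above 0 for 9, with a median of -0.119 against 0.036.

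Markers of other cells were present at levels that differed between libraries. The summed RPKM of 7 melanocyte markers was 454 to 1446 in WT, 488 to 1394 in TLR9KO and 834 to 1282 in STAT3KO, and none of the 7 was called in any comparison, adjusted or unadjusted. The 6 fibroblast markers summed to 1.38 to 3.38 RPKM in WT, 8.41 to 37.4 in TLR9KO and 12.0 to 26.4 in STAT3KO, and all 3 tested rose in both knockouts against WT. The 6 erythroid markers summed to 42.6 to 169 RPKM in WT, 0.56 to 3.31 in TLR9KO and 2.72 to 49.6 in STAT3KO, and all 4 tested fell in both. Of the dendritic cell markers, Itgax (CD11c), which monocytes and macrophages also express, made up most of the sum, at 127 to 191 RPKM in WT and 21.8 to 52.2 RPKM in STAT3KO. Flt3 was low, at 0.12 to 0.31 RPKM in WT and, higher, 0.32 to 1.48 in STAT3KO, and Zbtb46, at 0.88 to 2.02 in WT and 1.60 to 2.62 in STAT3KO, overlapped. The 8 myeloid markers summed to 4952 to 6364 RPKM in WT and 8077 to 11060 RPKM in STAT3KO, with 4 called up and 1 down. Lyz2, the largest of them, read 1746 to 3113 RPKM in WT and 4192 to 6427 RPKM in STAT3KO. The 1 called down was Itgam, which encodes the CD11b used for selection, at 294 to 313 RPKM in WT and 191 to 228 RPKM in STAT3KO. Neutrophil markers summed to 29.7 to 60.3 RPKM in WT, 31.2 to 67.6 in TLR9KO and 47.2 to 468 in STAT3KO. None of the 6 tested was called against WT by limma in either knockout, with 1 at an unadjusted p below 0.05 in STAT3KO and 0 in TLR9KO. Endothelial markers summed to 9.58 to 25.9, 7.64 to 18.3 and 5.89 to 9.30 RPKM in WT, TLR9KO and STAT3KO. Pecam1 was called down in STAT3KO against WT. Cdh5, too low to be tested, went the other way, at 0.38 to 0.61 RPKM in WT and 0.65 to 1.33 RPKM in STAT3KO. Kdr, Vwf and Tek overlapped between these groups. Of the B cell markers, Cd79b was called up in STAT3KO against WT, at 1.63 to 4.40 RPKM against 0.32 to 0.56 RPKM. T and NK cell markers summed to 5.24 to 30.5, 2.01 to 18.3 and 4.27 to 22.8 RPKM, and none of the 3 tested was called in any comparison or had an unadjusted p below 0.05. Epithelial markers summed to at most 0.62 RPKM, with Krt14 at 0. The part of these cells in the differences of p53 targets was not tested.

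Transcript overlaps can also touch single members, since whether counting used strand is not given in the sources used here. On GRCm38, 26.7% of the Ddb2 exon bases overlap Acp2 and 19.5% of those of Gadd45a overlap E230016M11Rik on the opposite strand, and 22.1% of those of Bax overlap Gm45808 on the same strand. For Cdkn1a the share was 10.0%, with AC167363.2 on the opposite strand. Rps27l and its paralog Rps27 share no identical stretch longer than 11 bases.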

How the data were processed

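The deposited files hold 1 RPKM value per gene symbol and library, per the file headers, except that the header of TLR9KO replicate 4 names no unit. Its values have the range and steps of the others. The tools named in the submitters' processing notes are TopHat 1.3.1, Bowtie 0.12.7, CASAVA 1.7 and Partek, with build mm9 and no role or order. Annotation, denominator and handling of multiply mapped reads were not given, so near-identical genes can share reads. Libraries were grouped by the labels (WT 3, TLR9KO 4, STAT3KO 4).

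Values were analysed as log2(RPKM + 1), which understates changes of low genes, for genes averaging 1 RPKM or more. The 3 group means were fitted to all 11 libraries with limma 3.58.1 (eBayes with trend, two-sided) in R 4.3.3, with Benjamini-Hochberg adjustment over the 10557 tested genes and a threshold of 0.05. No count model was used, since RPKM is not a count. The script was tested on simulated data. Tables used Python 3.11.15, pandas 2.3.3 and numpy 2.4.6, and plots matplotlib 3.10.9. GC content and length came from GENCODE M21 and promoter windows from RefSeq, both on GRCm38, not mm9. Depth was estimated from the steps of low values and used for description only.

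The members and gene lists were chosen with earlier results of these data known. All members are named. Those past the threshold in a comparison, and Trp53, Mdm2, Cdkn1a and Bax, are given by library. For each pathway list and comparison, the called genes of smallest p are given, up to 3, with a few others. Alternatives covered the pseudocount, the filter, scaling, array weights, fits of 2 groups alone, a GC and length correction, a replicate block and leaving out each library.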

Additional observations from a re-analysis of the deposited data

Results flagged for a closer look

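Among 64 groups of 4 libraries, 1 for each member in each knockout, 2 held a library set far apart from the others by Dixon's ratio, the gap to the nearest library over the whole range, past its 95% critical value. Chance alone puts about 1 in 20 groups there. Btg2 in STAT3KO replicate 3 read 41.08 RPKM, the highest of its group, where the other libraries lay between 24.88 and 26.56 RPKM (ratio 0.871). This library was still below every WT library, and Btg2 passed in STAT3KO against WT and against TLR9KO without it. Aen in TLR9KO replicate 2 read 13.45 RPKM, the highest of its group, where the others lay between 10.81 and 11.09 RPKM (ratio 0.884). Aen passed in STAT3KO against TLR9KO with that library left out.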

How the results depend on the processing

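In STAT3KO against WT, 10 of the 17 called members passed in every alternative run (Cdkn1a, Gadd45a, Btg2, Bax, Bbc3, Aen, Ercc5, Polk, Gdf15 and Sesn1), in STAT3KO against TLR9KO 6 of 10 (Btg2, Bbc3, Aen, Dram1, Xpc and Gdf15), and in TLR9KO against WT 0 of 9. Over 622 fits of the 36 called differences, 501 kept the call, 117 lost it and 4 changed sign. Those 4 were all of Rps27l: with the GC and length correction it read -0.21 in STAT3KO and -0.11 in TLR9KO against WT, and with the replicate block added -0.22 and -0.13. Trp53 in STAT3KO against WT read 0.01 with the correction. Median-ratio scaling ended 5 calls: Mdm2 and Xpc in STAT3KO against WT, Gadd45a and Sesn1 in TLR9KO against WT, and Gadd45a in STAT3KO against TLR9KO. In TLR9KO against WT, the members called were 4 without the filter, 5 with the 2 groups alone, 3 with the correction, 4 with the replicate block, 1 with both, and 3 to 8 on leaving out a library. All genes called there were 1655 with the correction, 1052 with the replicate block and the correction, and 1985 to 3588 on leaving out a library. In STAT3KO against TLR9KO, array weights called 3807 genes and 18 members, and leaving out a library gave 1577 to 2377 genes and 7 to 11 members. In STAT3KO against WT, leaving out a library gave 12 to 16 members. The members' mean level in WT, TLR9KO and STAT3KO was 3.23, 3.40 and 3.49 with a pseudocount of 0.1 and 4.27, 4.34 and 4.40 with 5. It was 3.64 in WT and 3.75 in STAT3KO with median-ratio scaling, and 3.68 and 3.75 with the correction. The cause of these changes was not tested. Leaving out a library also lowers power, and a pseudocount shifts the mean level by construction.

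Same-numbered libraries did not deviate together throughout, with correlations of -0.291 to 0.492, highest for the own number in 3 of 10 checks. Those 3 were replicates 1 and 3 of STAT3KO with TLR9KO (0.492 and 0.446) and replicate 1 of STAT3KO with WT (0.339). The labels do not say that the numbers pair the samples, so they were not taken to. Whether some libraries share a batch was not tested. The replicate block called 15, 4 and 7 members in STAT3KO against WT, TLR9KO against WT and STAT3KO against TLR9KO. Genes near 1 RPKM rest on about 60 to 107 reads in 2 kb, and their counting error was not measured.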
